A study of Mus musculus with 6 samples.

Results

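Gm26917, Gm42418, Lars2, Malat1 and Neat1 were described in the RNA of mouse osteoblasts, 5 genes of the 21686 in the count table. They were taken by gene symbol, and all 5 were found and passed the filter on low counts. Gm26917, Gm42418 and Lars2 were chosen by their own counts, which shifted between the 3 groups, so their differences are given as a description with no test. Malat1 and Neat1 were included as nuclear RNAs, with earlier results of these data known, and their differences were tested. GENCODE vM21 annotates Gm26917, Gm42418, Malat1 and Neat1 as long intergenic noncoding RNAs and Lars2 as protein coding, so "noncoding" describes 4 of the 5 genes. Nor was Neat1 among the abundant genes in control and dexamethasone, where it ranked between 1653 and 4114. Lars2 was not among them either, with ranks from 812 in a control library to 8331 in a library with EPC-EVs.

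Ribosomal RNA (rRNA) is transcribed by RNA polymerase I in the nucleolus as one long precursor, in which transcribed spacers surround the 18S, 5.8S and 28S parts. It has no poly(A) tail and makes up most of the RNA of a cell, and its tandem repeats are largely missing from the assembled mouse genome, so reads from it can be placed only at the few assembled fragments. Malat1 is a long noncoding RNA of nuclear speckles, the bodies that hold splicing factors, and Neat1 is the RNA scaffold of paraspeckles, which hold RNA-binding proteins such as SFPQ and NONO. Both stay in the nucleus. Lars2 encodes the mitochondrial leucyl-tRNA synthetase, which charges the leucine tRNAs of the mitochondrion.

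The cells were MC3T3-E1 Subclone 14, 1 subclone of a mouse osteoblast precursor line, grown in 1640 medium and sequenced after 72 hours in 2 libraries a group. The control group had received 100 µL of PBS, the dexamethasone group 10 µM of this synthetic glucocorticoid, and the dexamethasone + EPC-EVs group 10 µM dexamethasone with 100 µg of extracellular vesicles from endothelial progenitor cells, which the labels call EPCs-exo. The series text names fibroblasts and a shorter time, and parts of the paper a lower dose of vesicles; groups were taken from the sample labels. The study calls the libraries of a group biological replicates, and the labels do not say whether they came from separate cultures, so a p-value measures the spread between these libraries, which may be technical. With 2 libraries against 2, an exact permutation test cannot go below 0.333.

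The total counts ran from 5146760 to 6583735 in the control and dexamethasone libraries and were 12864009 and 13182014 in the dexamethasone + EPC-EVs libraries. The dexamethasone + EPC-EVs libraries also stood apart in their makeup, with 0.465% and 0.727% of their counts on mitochondrially encoded genes against 5.55% to 8.62% in the other 4. The counts of replicates varied beyond what sampling gives, the chi-square divided by its degrees of freedom being 16.6 for the control pair, 7.17 for the dexamethasone pair and 20.1 for the pair with EPC-EVs. Of the 13 osteoblast markers, Runx2, the transcription factor that commits cells to the lineage, lay between 159 and 203 CPM (the count scaled to a common library total) in the 6 libraries, whereas Alpl, Bglap and Ibsp did not pass 6.45 CPM. The summed level of the 13 markers was 17384 to 19828 CPM in the control and dexamethasone libraries and 40212 and 36171 CPM with EPC-EVs, the highest of them the matrix genes Col1a1, Col1a2, Postn and Spp1. Of these markers 0 passed the test between dexamethasone and control. Without replicate 1 of control that count rose, as did the number called over all genes. In each comparison with EPC-EVs 4 rose (Postn, Col1a1, Col1a2 and Sparc) and 1 fell (Spp1), 45.5% and 38.5% of the markers tested beside 39.8% and 36.4% of all genes. The counts with EPC-EVs changed when either library with EPC-EVs was left out. Of 10 endothelial and endothelial progenitor markers in the table, Cd34 had 231 to 412 CPM, Vwf and Eng reached 4.57 and 4.27 CPM in a control library, and the other 7, among them Cdh5, Tek, Pecam1 and Prom1, did not pass 2.28 CPM in any library. Cd34 fell with EPC-EVs, by 0.51 (SE 0.132) against dexamethasone, and was the only marker of its list called, a call lost without replicate 1 or without replicate 2 of dexamethasone. Its call against control was lost without replicate 1 of control or without either library with EPC-EVs. The blood marker Csf1r had 35.7 CPM in replicate 2 of dexamethasone + EPC-EVs and at most 4.35 CPM elsewhere, and was the only blood marker called, against control, a call lost without that library or without either control library. The part of these differences in makeup in the results was not tested.

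Gm26917 and Gm42418 lie side by side on chromosome 17 of GRCm38, on the plus strand. Gm26917 (ENSMUSG00000097971.3) spans chr17:39843013-39846341, 3329 bases in all. It ends 11 bases before CT010467.1, a gene annotated as rRNA on the opposite strand at chr17:39846353-39848827. Gm42418 (ENSMUSG00000098178.1) spans chr17:39846958-39848788, 1831 bases in 1 exon, and lies wholly within CT010467.1. The first 1244 bases of Gm42418, 67.9% of its length, are identical to the reverse complement of the annotated rRNA transcript, which is 1849 bases long and reaches 605 bases further to the left on the plus strand. AY036118, a noncoding gene on the minus strand, repeats 923 of these bases. The remaining 587 bases of Gm42418 continue beyond the rRNA transcript. The strand of CT010467.1, and so the order of its bases, is that of its annotation. The direction in which the rRNA itself is transcribed here was not examined, so Gm42418 cannot be called antisense to it. The sequences that show this order are given from 5′ to 3′ on the plus strand, from the GENCODE transcripts, with capitals for bases that belong to the rRNA transcript.
Gm26917, last 60 bases, chr17:39846282-39846341: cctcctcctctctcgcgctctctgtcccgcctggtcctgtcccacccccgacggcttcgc
rRNA transcript, reverse complement of its last 60 bases, chr17:39846353-39846412: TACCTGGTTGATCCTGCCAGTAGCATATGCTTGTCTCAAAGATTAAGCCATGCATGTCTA
Gm42418, first 60 bases, chr17:39846958-39847017: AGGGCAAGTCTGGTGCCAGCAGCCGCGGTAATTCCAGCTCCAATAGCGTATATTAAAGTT
Gm42418, bases 1185 to 1304, chr17:39848142-39848261: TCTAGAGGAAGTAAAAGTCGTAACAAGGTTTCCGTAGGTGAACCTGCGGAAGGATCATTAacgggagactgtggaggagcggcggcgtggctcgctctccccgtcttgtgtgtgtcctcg

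Along the plus strand, then, Gm26917 holds the sequence in front of the rRNA, and Gm42418 holds its later part and the sequence that follows. Gm26917 has a GC content of 69.1%, higher than 99.9% of the genes matched to the annotation, and Gm42418 one of 60.2%, higher than 96.6%. The part of Gm42418 beyond the rRNA has 71.0%. Gm26917 matched no transcript of another gene in a blastn search of all GENCODE transcripts, and it shared no stretch with Gm42418. CT010467.1 and AY036118 are not analysed here. Whether the counting used the strand is not stated in the sources used here, so reads of Gm42418 and of the genes opposite it cannot be told apart.

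**Figure D1:**
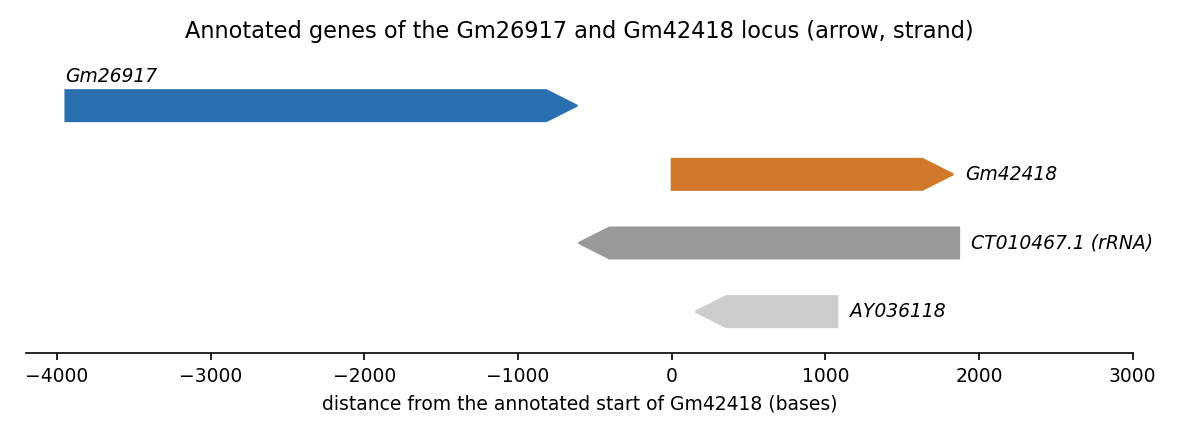
Positions of the annotated genes around Gm26917 and Gm42418, drawn to scale against the distance in bases from the annotated start of Gm42418, with arrows pointing along the strand of each gene. Gm26917 stops 11 bases short of the rRNA gene, and Gm42418 lies within it, on the strand opposite to the annotated one of the rRNA gene.

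Gm26917 was higher in every dexamethasone library than in control, and higher again with EPC-EVs. It had 6056 and 2518 CPM in control, 11366 and 7881 CPM in dexamethasone, and 58789 and 66939 CPM in dexamethasone + EPC-EVs. The 3 groups did not overlap, although the control libraries differed from each other 2.41-fold. Among all genes tested, 27.4% lay higher without overlap in dexamethasone than in control, 34.8% in dexamethasone + EPC-EVs than in dexamethasone and 38.3% in dexamethasone + EPC-EVs than in control. As a share of the library, these levels were 0.606% and 0.252%, 1.14% and 0.788%, and 5.88% and 6.69%. The counting error of each share was far smaller, with a 95% Wilson interval of 6.68% to 6.71% for the last of them, which covers counting error only. Gm26917 ranked 8 and 22 among all genes in the control libraries, 3 and 6 in dexamethasone and 1 in both dexamethasone + EPC-EVs libraries. The mean was 4287 ± 2502 CPM in control, 9623 ± 2464 CPM in dexamethasone and 62864 ± 5763 CPM with EPC-EVs (SD, n = 2).

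The fitted log2 fold change of Gm26917 was 1.10 (SE 0.311) in dexamethasone against control, 2.76 (SE 0.163) in dexamethasone + EPC-EVs against dexamethasone, and 3.86 (SE 0.396) in dexamethasone + EPC-EVs against control. The last is a 14.5-fold difference. With the trend of fold changes on GC content and on length taken out, these values were 0.44 (SE 0.141), 1.14 (SE 0.106) and 1.62 (SE 0.203). Without replicate 1 of control, the differences from control were 1.85 in dexamethasone and 4.64 with EPC-EVs, and without replicate 2 of control they were 0.62 and 3.39, so their size depends on which control library is used.

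Gm42418 did not follow its neighbour. It had 2604 and 3945 CPM in control, 317 and 777 CPM in dexamethasone, and 2605 and 2583 CPM in dexamethasone + EPC-EVs. Both dexamethasone libraries were thus below all the others, and the dexamethasone + EPC-EVs libraries overlapped the control libraries, one of them lying within 1 CPM of replicate 1 of control. Among all genes tested, 17% lay lower without overlap in dexamethasone than in control, and 34.8% lay higher without overlap once EPC-EVs were added to dexamethasone. Its rank among all genes was 21 and 16 in control, 469 and 106 in dexamethasone and 19 in both libraries with EPC-EVs. The fitted log2 fold change was −2.66 (SE 0.356) in dexamethasone against control, 2.29 (SE 0.521) in dexamethasone + EPC-EVs against dexamethasone and −0.37 (SE 0.231) in dexamethasone + EPC-EVs against control. The last value was 0.01 without replicate 2 of control and −1.93 with the trend on GC content and length removed, so its direction and size are not settled. With that trend removed the difference between EPC-EVs and dexamethasone was 1.31 (SE 0.660). The dexamethasone libraries differed 2.45-fold from each other, and without replicate 2 of dexamethasone the first 2 differences were −3.45 and 3.09.

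The ratio of Gm26917 to Gm42418 counts was 2.33 and 0.638 in control, 35.9 and 10.1 in dexamethasone, and 22.6 and 25.9 in dexamethasone + EPC-EVs. In the control libraries either neighbour could be the higher one, and in the other 4 libraries Gm26917 had at least 10.1 times the counts of Gm42418. The dexamethasone and dexamethasone + EPC-EVs libraries overlapped in this ratio. Per base of gene length, from the deposited FPKM (the count scaled to gene length and library total), Gm26917 averaged 1288, 2891 and 18884 in the 3 groups and Gm42418 averaged 1789, 299 and 1417. Over the 6 libraries the log2 levels of the pair had a Pearson r of 0.0389, given as a description of libraries that fall into 3 groups. The 2 neighbours did not keep a fixed proportion across these libraries.

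**Figure D2:**
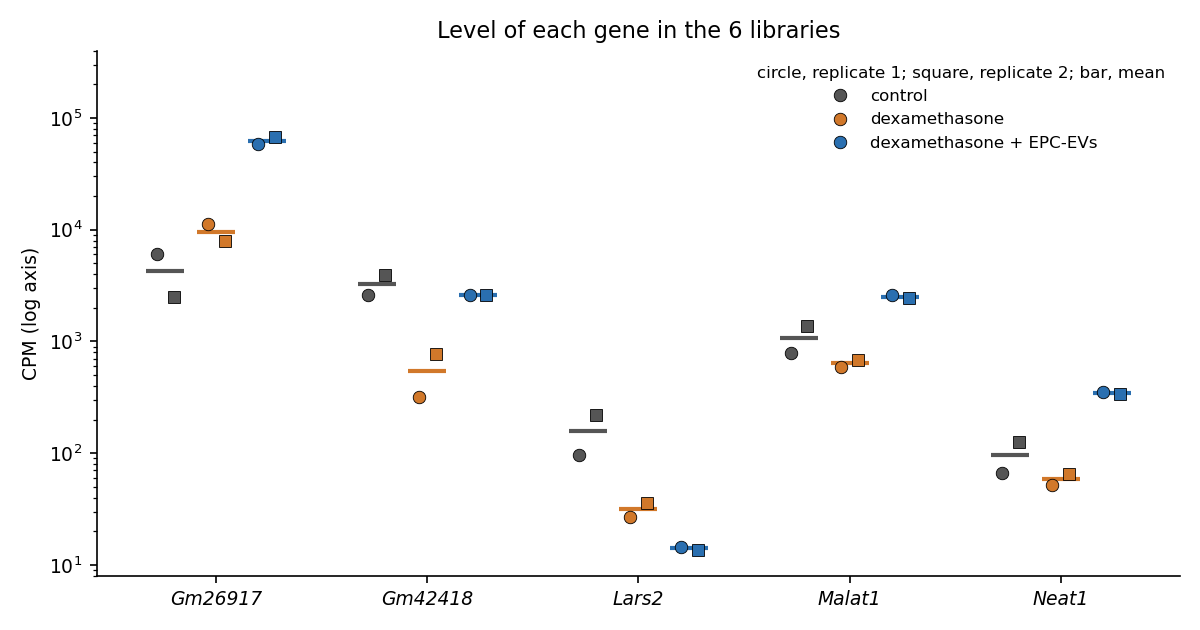
Level of each of the 5 genes in CPM on a log axis, with a circle for replicate 1, a square for replicate 2 and a bar for the mean of the group. Gm26917 reaches 58789 and 66939 CPM with EPC-EVs, Gm42418 is lowest in the dexamethasone libraries, Lars2 is lower in each group than in the one before, and Malat1 and Neat1 are lowest in dexamethasone and highest with EPC-EVs.

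Lars2 (ENSMUSG00000035202.8, chr9:123366927-123462666, plus strand) was highest in control and lowest with EPC-EVs. It had 96.3 and 221 CPM in control, 27.0 and 35.7 CPM in dexamethasone, and 14.5 and 13.6 CPM in dexamethasone + EPC-EVs, on counts of 590, 1139, 178, 235, 187 and 179. The groups did not overlap, and the control libraries differed 2.30-fold. Libraries that lay lower without overlap were seen in 17% of the genes tested in dexamethasone against control, 37.8% in dexamethasone + EPC-EVs against dexamethasone and 34.6% in dexamethasone + EPC-EVs against control. The fitted log2 fold change was −2.42 (SE 0.355) in dexamethasone against control, −1.11 (SE 0.260) in dexamethasone + EPC-EVs against dexamethasone and −3.53 (SE 0.397) in dexamethasone + EPC-EVs against control, an 11.6-fold difference. Without replicate 2 of control the first was −1.66 and the last −2.76. On log2(FPKM + 1), a scale that understates the change of low values, the last 2 differences were −0.75 and −2.65.

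The longest transcript of Lars2 has 21 exons and 3894 bases, of which bases 200 to 2905 are coding, and the length behind the FPKM is 11089 bases, the union of all annotated exons. In its 3′ untranslated region, bases 3278 to 3349 matched a transcript of the noncoding gene Gm15564 at 98.6% identity over 72 bases, the only match of at least 90% identity over at least 50 bases. Gm15564, one of the genes listed below as rRNA-like or structural RNAs, did not pass 0.389 CPM in any library. Which part of Lars2 its counts came from was not examined. No stretch of the Lars2 transcript matched Gm26917 or Gm42418. Nearby, Limd1, which starts 16039 bases beyond the end of Lars2, had 29.0 to 56.5 CPM, and its groups overlapped in all 3 comparisons.

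Of the other tRNA synthetases of the mitochondrion, 0 passed the test as lower in any of the 3 comparisons. Their list holds 18 genes, including Gars and Kars, which also serve the cytosol. Between dexamethasone and control 0 of the 16 tested passed, with a median log2 fold change of 0.22. Without replicate 1 of control the count rose, as did that over all genes. In dexamethasone + EPC-EVs against dexamethasone, 7 of 18 rose and 0 fell, with a median of 0.50, and against control 7 of 18 rose and 0 fell, with a median of 0.66. Over all genes tested the median was 0.01 and 0.02 in these 2 comparisons, and 20.9% and 19.1% of genes rose. Leaving out 1 library at a time gave 2 to 5 that rose against dexamethasone, fewest without replicate 2 of dexamethasone, and 4 to 9 against control, with at most 1 that fell. The largest rise against dexamethasone was that of Aars2, the alanyl enzyme, with a log2 fold change of 1.48 (SE 0.260). The most abundant, Gars, the glycyl enzyme, rose by 0.67 (SE 0.135), a call lost without replicate 2 of dexamethasone (0.58, adjusted p = 0.0579 by the edgeR test), and Kars, the lysyl enzyme, had −0.37 (SE 0.148) and did not pass. Against control Pars2, the prolyl enzyme, had the largest rise, from counts of 1 and 0 in control to 57 and 45 with EPC-EVs, a call lost without either library with EPC-EVs.

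Lars2 counts equalled 19.9% and 45.1% of the summed counts of these 18 genes in control, 5.04% and 6.56% in dexamethasone, and 2.07% and 2.14% in dexamethasone + EPC-EVs. The sum itself was 483 to 544 CPM in control and dexamethasone and 702 and 635 CPM with EPC-EVs. Of the cytosolic tRNA synthetases, 0 of 18 passed the test between dexamethasone and control, 8 rose and 0 fell in dexamethasone + EPC-EVs against dexamethasone, and 4 rose and 1 fell against control. That is 44.4% and 27.8% of the list called in the comparisons with EPC-EVs, beside 39.8% and 36.4% of all genes, and leaving out 1 library at a time gave 3 to 8 and 2 to 6 that rose. The count between dexamethasone and control rose without replicate 1 of control and without its replicate 2, as did that over all genes. Vars, the valyl enzyme, had the largest rise in both comparisons with EPC-EVs, 1.56 (SE 0.149) and 2.25 (SE 0.198). Aars and Eprs, the most abundant of the list, had 0.38 (SE 0.122), which passed, and −0.25 (SE 0.127), which did not, against dexamethasone. Aars was no longer called without replicate 1 or without replicate 2 of dexamethasone.

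**Figure D3:**
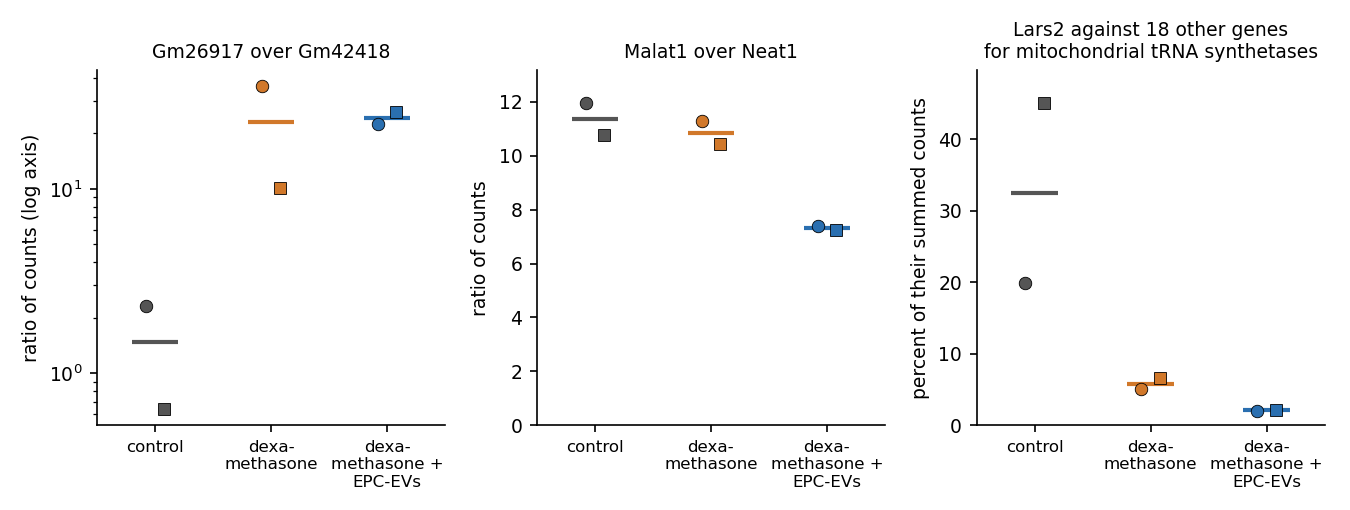
Ratio of Gm26917 to Gm42418 counts on a log axis, ratio of Malat1 to Neat1 counts, and Lars2 counts as a percent of the summed counts of 18 other genes for mitochondrial tRNA synthetases, with a circle for replicate 1, a square for replicate 2 and a bar for the mean. The first ratio is lowest in control, the second is lowest with EPC-EVs at 7.39 and 7.24, and the third goes from 19.9% and 45.1% in control to 2.07% and 2.14% with EPC-EVs.

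Malat1 and Neat1 are neighbours on the minus strand of chromosome 19. Malat1 (ENSMUSG00000092341.2) spans chr19:5795690-5802672 and Neat1 (ENSMUSG00000092274.2) chr19:5824708-5845478, with 22035 bases between them. Neat1 was counted over its full length of 20771 bases, so its short and long isoforms are not told apart, and Malat1 over 6983 bases. The 2 transcripts shared a stretch of 147 bases at 91.8% identity. Of 2093 genes with a match of at least 90% identity over at least 50 bases to some part of Malat1, 2092 matched at least 50 bases of this stretch, and 662 genes matched some part of Neat1. On its opposite strand Malat1 overlaps Gm37376, not analysed here, over 453 bases. Malat1 and Lars2 have a promoter window in RefSeq for GRCm38, from 250 bases before the start to 50 after it. That of Malat1 is shown with capitals for the bases from the start onward. Its part in the changes of Malat1 was not tested.
Malat1 promoter, chr19:5802623-5802922, minus strand: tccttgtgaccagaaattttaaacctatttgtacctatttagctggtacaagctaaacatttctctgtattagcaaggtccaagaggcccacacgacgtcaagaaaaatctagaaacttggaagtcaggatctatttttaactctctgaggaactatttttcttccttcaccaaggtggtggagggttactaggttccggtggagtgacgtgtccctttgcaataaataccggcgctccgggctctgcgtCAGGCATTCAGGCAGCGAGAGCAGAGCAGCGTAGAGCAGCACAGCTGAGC

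Malat1 had 787 and 1363 CPM in control, 584 and 685 CPM in dexamethasone, and 2595 and 2447 CPM in dexamethasone + EPC-EVs. Neat1 had 65.8 and 127 CPM in control, 51.8 and 65.7 CPM in dexamethasone, and 351 and 338 CPM in dexamethasone + EPC-EVs. For both genes the libraries with EPC-EVs were above all others, and the dexamethasone libraries were below both control libraries, for Neat1 by a gap of under 1 CPM. Of all genes tested, 34.8% were higher without overlap with EPC-EVs than in dexamethasone, and 38.3% than in control. Malat1 ranked 107 and 52 among all genes in control, 172 and 132 in dexamethasone and 20 and 21 with EPC-EVs, and Neat1 3238 and 1653, 4114 and 3342, and 353 and 374.

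Compared with the dexamethasone group, Malat1 rose in dexamethasone + EPC-EVs with a log2 fold change of 2.03 (SE 0.122), a 4.10-fold difference, and Neat1 with 2.60 (SE 0.155), a 6.05-fold difference. Both had an adjusted p of 7.99e-07 in the quasi-likelihood test of edgeR after Benjamini-Hochberg adjustment over 13556 genes. That comparison called 39.8% of the genes tested, 20.9% of all tested as higher, so a call is common there. Compared with control, Malat1 rose with EPC-EVs by 1.20 (SE 0.266, adjusted p = 0.00929) and Neat1 by 1.81 (SE 0.300, adjusted p = 0.00257) by the same test over 13511 genes, of which 36.4% were called and 19.1% were called higher. Without replicate 2 of control Neat1 rose by 2.40 against control, and without replicate 1 of control by 1.44. With the trend on GC content and length removed, Malat1 rose by 2.62 against dexamethasone and by 1.91 against control. The rises of both genes with EPC-EVs were called under all 14 alternatives in both comparisons. The libraries with EPC-EVs were also the deepest and had the lowest mitochondrial share, and these properties of the libraries and the treatment cannot be told apart. Since both comparisons use the dexamethasone + EPC-EVs libraries, they are not independent.

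Between dexamethasone and control neither gene passed the test. Malat1 had a log2 fold change of −0.84 (SE 0.232, adjusted p = 0.291) and Neat1 of −0.79 (SE 0.298, adjusted p = 0.393) by edgeR's quasi-likelihood test over 12879 genes. The comparison called 7 genes, 0.0544% of those tested (0.0155% higher and 0.0388% lower), and 1409 genes had an unadjusted p under 0.05. The libraries of both genes lay lower in dexamethasone without overlap, as did those of 17% of the genes tested. Without replicate 1 of control, with the lone control library assumed to vary like the dexamethasone libraries, Malat1 had −1.19 (adjusted p = 1.09e-11) and Neat1 −1.19 (adjusted p = 9.27e-06), and that fit called 2200 genes. Without replicate 2 of control they had −0.35 and −0.21 and did not pass.

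The ratio of Malat1 to Neat1 counts was 12.0 and 10.8 in control, 11.3 and 10.4 in dexamethasone, and 7.39 and 7.24 in dexamethasone + EPC-EVs. Control and dexamethasone overlapped, and the libraries with EPC-EVs lay below both. Per base of gene length the excess of Malat1 was larger, with an FPKM ratio of 35.6 and 32.0, 33.6 and 31.0, and 22.0 and 21.5. The mean FPKM of Malat1 was 154, 90.9 and 361 in the 3 groups and that of Neat1 4.63, 2.83 and 16.6. The ratio is a description and was not tested. In the same region, Frmd8, which lies 4223 bases from Neat1, had 21.6 to 37.9 CPM in control and dexamethasone and 50.8 and 54.5 CPM with EPC-EVs. Ltbp3, 37157 bases from Malat1, had 129 to 257 CPM in control and dexamethasone and 361 and 338 CPM with EPC-EVs. Higher levels without overlap were common with EPC-EVs, in 34.8% of all genes tested against dexamethasone and 38.3% against control. The neighbours Frmd8os, Slc25a45 and Tigd3, and Scp2-ps2 near Lars2, had few counts and did not pass 12.2 CPM.

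**Figure D4:**
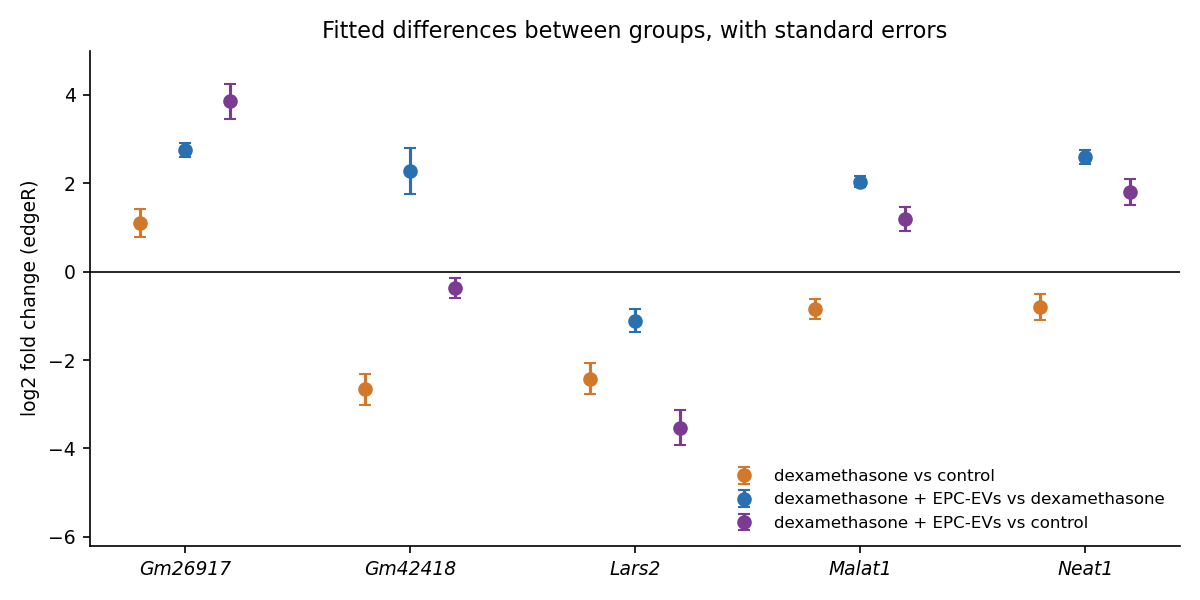
Fitted log2 fold change of the 5 genes from edgeR in each of the 3 comparisons, with bars for 1 standard error. Malat1 and Neat1 are below 0 between dexamethasone and control and above 0 in both comparisons with EPC-EVs, Lars2 is below 0 in all 3, Gm26917 is above 0 in all 3, and Gm42418 changes sign.

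Among genes for proteins of the bodies that hold Malat1 and Neat1, more fell than rose with EPC-EVs. Of 32 genes for paraspeckle proteins, 4 rose and 15 fell in dexamethasone + EPC-EVs against dexamethasone, the median log2 fold change being −0.33, and 3 rose and 13 fell against control, with a median of −0.50. Over all genes 20.9% rose and 18.9% fell against dexamethasone, and 19.1% and 17.2% against control, so that a smaller share of this list rose, and a larger share fell, than of all genes. Leaving out 1 library at a time gave 1 to 6 that rose and 9 to 15 that fell against dexamethasone, and 1 to 4 and 10 to 14 against control, fewest falls against dexamethasone without its replicate 2 (9) and replicate 1 (10). Hnrnpa1 and Nono, the most abundant, fell, with −1.15 (SE 0.127) and −0.87 (SE 0.121) against dexamethasone and −1.70 (SE 0.176) and −1.02 (SE 0.170) against control. Hnrnpa1 encodes an RNA-binding splicing regulator and Nono a core paraspeckle protein. The largest fall was that of the zinc finger gene Zc3h6, −2.24 (SE 0.277), and the largest rise that of Rbm14, which encodes a paraspeckle protein, 1.47 (SE 0.275), or 2.07 without replicate 1 of dexamethasone. Between dexamethasone and control 0 of 32 passed, with a median of −0.15. That count rose without replicate 1 of control and without its replicate 2, as did the number called over all genes.

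Of 36 genes for nuclear speckle proteins, 5 rose and 17 fell in dexamethasone + EPC-EVs against dexamethasone, with a median of −0.32, and 3 rose and 18 fell against control, with a median of −0.41. Srrm2, which encodes a scaffold of speckles, had the highest level, 1935 CPM on average, and fell by 0.47 (SE 0.109) against dexamethasone, a call lost without replicate 2 of dexamethasone (−0.40, adjusted p = 0.107 by the edgeR test). Luc7l2, a splicing factor gene, fell by 1.71 (SE 0.131) and its relative Luc7l3 had the largest fall, −2.61 (SE 0.148). Srsf7, which encodes a serine- and arginine-rich splicing factor, had the largest rise, 1.21 (SE 0.245). Between dexamethasone and control 0 of 36 passed, with a median of −0.21, a count that rose without replicate 1 of control, as did that over all genes. Across all genes, 20.9% rose and 18.9% fell in dexamethasone + EPC-EVs against dexamethasone, and 19.1% and 17.2% against control. Leaving out 1 library at a time gave 2 to 6 that rose and 15 to 17 that fell against dexamethasone, and 1 to 7 and 13 to 18 against control.

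Of 42 genes for RNA polymerase I and rRNA processing, 16 rose and 8 fell in dexamethasone + EPC-EVs against dexamethasone, with a median of 0.34, and 9 rose and 8 fell against control, with a median of 0.41. Over all genes 20.9% rose and 18.9% fell against dexamethasone, and 19.1% and 17.2% against control, so that the shares of this list against control, and its falls against dexamethasone, lay near those of all genes. The 16 that rose became 8 without replicate 1 of dexamethasone, 7 without its replicate 2 and 8 without replicate 2 of dexamethasone + EPC-EVs, and leaving out 1 library at a time gave 2 to 14 that rose against control. The median was above 0, and the 2 most abundant genes of the list fell. Ncl, the gene of nucleolin, and Npm1, that of nucleophosmin, both fell, with −2.50 (SE 0.132) and −1.63 (SE 0.137) against dexamethasone and −2.96 (SE 0.186) and −1.89 (SE 0.175) against control. Rrp9, for a protein of the small nucleolar complex that processes the precursor, had the largest fitted rise against dexamethasone, 2.31 (SE 0.746), from counts of 2 and 33 in dexamethasone to 178 and 157 with EPC-EVs. Its size rests on the library with 2 counts, the difference being 1.41 (SE 0.420) without replicate 1 of dexamethasone and 5.40 (SE 0.688) without replicate 2. Taf1c, for a subunit of the polymerase I selectivity factor, had the largest rise against control, 2.31 (SE 0.583), which was 2.91 without replicate 2 of control and was no longer called without replicate 2 of dexamethasone + EPC-EVs (adjusted p = 0.162 by the edgeR test). The summed level of the 42 genes was 2677 to 3025 CPM in control and dexamethasone and 1995 and 2171 CPM with EPC-EVs. Between dexamethasone and control 0 of 42 passed, with a median of 0.00, a count that rose without replicate 1 of control, as did that over all genes.

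Of 27 other long noncoding RNAs in the table, 3 rose and 1 fell among 19 tested in dexamethasone + EPC-EVs against dexamethasone, with a median of 0.38, and 0 rose and 2 fell among 21 tested against control, with a median of 0.08. Over all genes, 39.8% and 36.4% were called in these 2 comparisons. Leaving out 1 library at a time gave 0 to 3 that rose against dexamethasone and 0 to 3 that fell against control, and each of the 4 genes called that are named here lost its call in at least 1 such fit. Kcnq1ot1, the most abundant and the RNA of an imprinted domain, rose by 0.40 (SE 0.126) against dexamethasone and had −0.08 (SE 0.188) against control. 2900097C17Rik, the next in level, had 0.09 (SE 0.129) and 0.03 (SE 0.185), neither of which passed. Snhg18, a small nucleolar RNA host gene, had the largest rise against dexamethasone, 2.59 (SE 0.828), at a mean of 2.04 CPM (3.89 without replicate 1 and 1.93 without replicate 2 of dexamethasone), and Tug1 fell by 0.85 (SE 0.245). Against control Snhg1 had the largest fall, −1.20 (SE 0.394). Their summed level was 933 to 1183 CPM over all 6 libraries, lowest in both dexamethasone libraries and overlapping between control and dexamethasone + EPC-EVs. Between dexamethasone and control 0 of 16 passed, a count that rose without replicate 1 of control, as did that over all genes.

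Of 31 genes listed as rRNA-like or structural RNAs, 11 were in the table, all of them predicted genes such as Gm10800 and Gm21738 and none of them at the locus of Gm26917, and their likeness to rRNA was not examined. Their summed level was 66.6 to 102 CPM in control and dexamethasone and 1.09 and 1.59 CPM with EPC-EVs. In dexamethasone + EPC-EVs, 5 of 5 tested fell against dexamethasone and 6 of 6 against control, with fewer called in most fits that left out 1 library. Between dexamethasone and control 0 of 6 passed, a count that rose without replicate 1 of control, as did that over all genes. Of all genes 18.9%, 17.2% and 0.0388% fell in these 3 comparisons. Gm10800, the most abundant, fell, with −6.11 (SE 0.448) against dexamethasone and −6.23 (SE 0.578) against control, which ranged from −7.17 to −5.47 and from −7.29 to −5.60 over the libraries left out. Gm26870, with the lowest fitted value in both, had counts of 27 and 62 in control, 15 and 12 in dexamethasone and 0 in both libraries with EPC-EVs.

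The mitochondrially encoded genes, whose messages are translated with the tRNAs that Lars2 serves, fell with EPC-EVs. Of 11 tested, 0 rose and 2 fell between dexamethasone and control, namely mt-Cytb with −1.18 (SE 0.124) and mt-Nd2 with −1.13 (SE 0.140), where 0.0388% of all genes fell. All 11 had a negative value, with a median of −0.80. More of these genes were called without either control library, as were more of all genes. Both calls were lost without either dexamethasone library. In dexamethasone + EPC-EVs, 10 of 11 fell against dexamethasone, with a median of −3.94, and 12 of 12 against control, with a median of −4.76 (at least 10 of 11 in both when 1 library at a time was left out), where 18.9% and 17.2% of all genes fell. The highest, mt-Co1, had −2.70 (SE 0.162) against dexamethasone and mt-Nd5 had −4.59 (SE 0.265), and mt-Nd2 had the largest fall, −6.01 (SE 0.494), or −6.73 without replicate 2 of dexamethasone + EPC-EVs. The 5 genes together took 0.961% and 0.817% of the counts in control, 1.23% and 0.944% in dexamethasone and 6.44% and 7.23% in dexamethasone + EPC-EVs. Leaving the mitochondrial genes out of the library totals moved no mean share of the 5 genes by more than the spread between replicates.

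**Figure D5:**
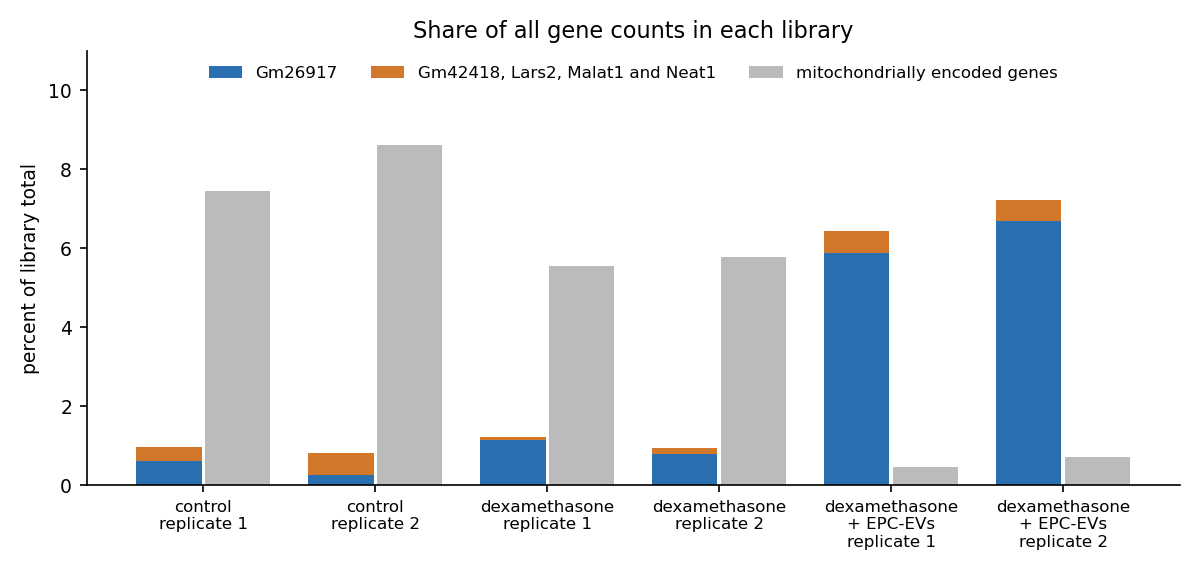
Percent of all gene counts in each library taken by Gm26917, by the other 4 genes together and by the mitochondrially encoded genes, with 1 pair of bars for each library. Gm26917 holds most of the 6.44% and 7.23% of the 5 genes with EPC-EVs, where the mitochondrial share is 0.465% and 0.727%.

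Over the 6 libraries, genes with a pattern like that of each of the 5 were ranked by Pearson's r of log2(CPM + 1) among the 9218 genes that averaged 10 CPM or more. These values describe 6 libraries in 3 groups and are not tested. For Gm26917 the 5 nearest were Trim28, Mvd, Ptpa, Fkbp8 and Wdtc1, all at an r of 0.999, and 1869 genes had an r over 0.9. For Gm42418, whose pattern was low in dexamethasone alone, 30 genes did, and the nearest were Arl15 at 0.993, C1s1 at 0.975, Sypl at 0.971, Ctgf at 0.962 and Cemip at 0.941. For Lars2 the nearest were Cinp at 0.998, Nolc1 at 0.995, Adgrg6 at 0.991, Ctps at 0.990 and Lrrn4cl at 0.989, and 337 genes had an r over 0.9. Nolc1 encodes a nucleolar phosphoprotein and Ctps the enzyme that makes CTP.

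For Malat1 the nearest gene was Neat1, at 0.993, and Malat1 was in turn the nearest to Neat1. Heph, Pgghg and Pappa2 were among the 5 nearest of both, at 0.987 to 0.993, with Zfp521 at 0.986 for Malat1 and Gart at 0.993 for Neat1. An r over 0.9 was reached by 190 genes for Malat1 and 289 for Neat1. Gm26917 and Lars2, both ordered along the 3 groups, had an r of −0.926, and the other 8 pairs of the 5 genes lay between −0.471 and 0.736. In bulk RNA, fewer cells of a type and less RNA per cell cannot be told apart, for these genes as for the lists.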

How the data were processed

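RNA of 6 libraries was measured, 2 a group. The authors aligned the cleaned reads to GRCm38 with HISAT2, set for a stranded library, and counted them per gene with HTSeq 0.6.1. They deposited the counts without normalization, beside the FPKM of each gene, which is the same count scaled to the length of the gene and to the library. The labels name a library kit that is not the directional one. The deposited transcript FPKM, which cover chromosome 1 here, were not used.

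Each comparison took the counts of its 4 libraries to edgeR 4.0.16 (R version 4.3.3), normalized by TMM and filtered by filterByExpr, and the robust quasi-likelihood test was used, with Benjamini-Hochberg adjustment over the genes tested and a threshold of 0.05 on the adjusted p. SDs are between the 2 libraries. A count of 0 leaves room for 3 counts, which is 0.228 to 0.583 CPM in these libraries, counting error only. Coordinates are those of GENCODE vM21, in which 21646 of 21686 genes were found by identifier without version, and shared stretches were searched with blastn 2.17.0 (word size 11).

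The 5 genes and the gene lists were chosen with earlier results of these data known. The genes named are the 5 genes, those within 50 kb of them (1 of which is not reported here), the 5 most alike to each, and of each list the 2 highest in mean CPM and the largest rise and fall among called genes. Markers, and genes with few counts named by a count, were singled out after their values were seen. The alternatives were other normalizations, no filter, DESeq2 1.42.0, limma 3.58.1 on log2(FPKM + 1), a joint fit of the 6 libraries, a block for the replicate number, leaving out each library or the picked and mitochondrial genes, and, chosen after seeing the data, removal of the dependence of fold changes on GC content and length by loess (span 0.4). The counts of each gene list were also refitted with each library left out in turn, a choice made after seeing the data, and the single library then left in a group is assumed to vary like the others.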

Additional observations from a re-analysis of the deposited data

How the results depend on the processing

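Of 84 values of Malat1 and Neat1 under the alternatives, 80 kept their direction and side of the threshold, among them all values in both comparisons with EPC-EVs, where the adjusted p reached at most 0.0189. The other 4 concern dexamethasone against control, where the 2 genes were called without the filter (−0.84 with an adjusted p of 5.53e-05, and −0.79 with 0.0404) and without replicate 1 of control. Leaving out each library gave −1.19 to −0.35 for Malat1 and −1.19 to −0.21 for Neat1. The 7 genes called between dexamethasone and control became 248 without the filter and 130 with DESeq2, which was also run without that filter. They became 0 with limma on log2(FPKM + 1), 43 with the replicate number as a block, 18 with the GC and length trend removed and 1 with the picked and mitochondrial genes left out. Leaving out each library gave 9 to 2200 there, 3250 to 4813 in dexamethasone + EPC-EVs against dexamethasone and 3375 to 6231 against control. With the GC and length trend removed, Gm26917 had 1.14 and 1.62 and Gm42418 1.31 and −1.93 in the comparisons of EPC-EVs with dexamethasone and with control, and Gm26917 had 0.44 in dexamethasone against control. With limma, Lars2 had −0.75 and −2.65. Over the libraries left out, Gm26917 ranged from 0.62 to 1.85 in dexamethasone against control, 2.52 to 3.05 in EPC-EVs against dexamethasone and 3.39 to 4.64 against control, Gm42418 from −3.45 to −2.15, 1.79 to 3.09 and −0.61 to 0.0074 (the last, without replicate 2 of control, reversed the direction), and Lars2 from −2.90 to −1.66, −1.29 to −0.89 and −3.98 to −2.76. The cause of these changes was not tested. The same replicate numbers stand in every group, but the labels name no shared batch, and the deviations of same-numbered libraries correlated at 0.145, 0.0000111 and 0.0416 over 9218 genes, so the numbers were not taken as pairs. The block changed no call of Malat1 or Neat1.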
